A study of Mus musculus with 6 samples.

Results

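The genes described here are those of the integrated stress response and the unfolded protein response in mouse bone marrow cells that carried a retroviral MN1 vector or the empty vector. A list of 38 genes was given by name, and its members were found as probe sets annotated with exactly 1 gene symbol equal to a listed name, with the probe set of highest mean kept where a gene had several. Of the 38, 35 were measured among 19938 genes tested. Aars, for the alanyl-tRNA synthetase, is named only together with other genes, and Mars and Pycr1 are not named under these symbols in the array's annotation. By role, the 35 are 8 regulators of the integrated stress response, 7 enzymes of amino acid synthesis and one-carbon metabolism, 3 amino acid transporters, 7 genes of tRNA charging and export, and 10 genes of the unfolded protein response.

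The integrated stress response begins when one of several kinases phosphorylates the translation factor eIF2, which lowers protein synthesis in general but favours translation of the transcription factor ATF4. ATF4 and its partners then activate genes for amino acid synthesis, uptake and tRNA charging, together with the feedback genes Ddit3, Trib3 and Ppp1r15a. The unfolded protein response starts from misfolded protein in the endoplasmic reticulum (ER), where the sensors PERK, IRE1 and ATF6 raise chaperones and degradation factors. PERK is also an eIF2 kinase, so the responses share the ATF4 arm. In blood cell formation both are known for their part in the survival of stem cells and in secretory cells.

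MN1 is a transcriptional coregulator that is often highly expressed in myeloid leukaemia. Both groups were bone marrow cells infected with a murine stem cell virus (MSCV) vector with an IRES-linked fluorescent reporter, either carrying MN1 or empty, sorted for the reporter at 72 hours, and each group has 3 arrays from what the series text calls independent experiments. The sample labels name the reporter GFP, whereas the text on the whole series names it YFP. The sources used here do not give mouse strain, age, culture conditions or whether donor animals differed between arrays, so p-values measure the spread between these samples. MN1 is driven by the viral vector in a mixed marrow population, and the controls carry the same kind of virus. In such bulk samples, fewer cells of a type and less RNA per cell cannot be told apart. The values are log2 expression values from RMA, and their number, 3 arrays per group, limits every comparison. Mn1 measured 6.08 to 6.62 on the MN1 arrays and 4.80 to 5.41 on the empty vector arrays, without overlap (adjusted p = 0.584, limma). The 8 haematopoietic identity genes, such as Ptprc (CD45) and Spi1, had mean values of 11.36 to 11.64 on all 6 arrays.

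No member passed the test between MN1 and empty vector, and none had groups that did not overlap. Of the 35 members, 0 had an adjusted p under 0.05 (limma, Benjamini-Hochberg over all genes), where 0% of all genes did, and the smallest adjusted p of a member was 0.584. At an unadjusted p under 0.05, 1 member, Ddit3, was higher and 0 were lower, where 4.17% of all genes were higher and 4.23% lower, or 8.40% in all. Those were 832 genes higher and 843 lower, and 977 and 400 when each array was centred on the median of all its probe sets, a setting chosen after seeing the data. The MN1 arrays lay wholly above the empty vector arrays for 0 of 35 members and wholly below for 0, against 5.71% and 10.3% of all genes. A log2 difference of at least 0.5 was found for 3 members higher with MN1 (Trib3, Ddit3 and Ppp1r15a) and 0 lower, where 4.63% and 1.77% of all genes had one. At the unadjusted threshold and by overlap, the members' shares lay below those of all genes. By sign alone, 23 members were higher with MN1 and 12 lower, where 43.3% of all genes were higher and 56.7% lower. The median difference was 0.10 over the members and -0.03 over all genes (log2). The members were bright, with a median level at percentile 95.1 of all genes. With the dimmest 40% of genes left out, the median over all genes was 0.04 and that of the members stayed 0.10. At an unadjusted p under 0.05 (limma), 599 of all genes were then higher and 251 lower. By role, the regulators were 8 higher and 0 lower, the tRNA genes 7 and 0 and the synthesis enzymes 5 and 2. The transporters were 1 and 2 and the unfolded protein response genes 2 and 8. Leaving out single arrays changed these counts, except for the transporters. The regulators were 7 higher and 1 lower without empty vector replicate 3. The synthesis enzymes were 4 higher and 3 lower without empty vector replicate 1. The other changes are given further below.

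Much of the members' variation lay on a single array. MN1 replicate 3 held the highest of the 6 values for 22 of 35 members (62.9%), where it held the highest value for 17.9% of all genes tested. Those 22 include all 7 enzymes of amino acid synthesis and one-carbon metabolism and all 7 tRNA genes, 5 of 8 regulators, 2 of 3 transporters, and 1 of 10 unfolded protein response genes. MN1 replicate 2, from the same group, held the highest value for 0 members and the lowest for 11 of 35 (31.4%), where it held the lowest value for 10.7% of all genes. The spread within the MN1 group was larger than within the empty vector group for 27 of 35 members (77.1%) and for 52.6% of all genes. The median SD of the members was 0.45 within the MN1 group and 0.22 within the empty vector group. For all genes it was 0.16 in both. With 3 arrays a group this is a description of these arrays and not a test. The members were brighter than most genes, and a share over genes of like level is not given here. MN1 replicate 3 had the lowest median over all probe sets, 5.82, against 5.93 to 6.01 on the other arrays. Its median over the genes tested was the highest, 6.551, against 6.512 to 6.546. The part of this in the members' values was not tested.

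**Figure D1:**
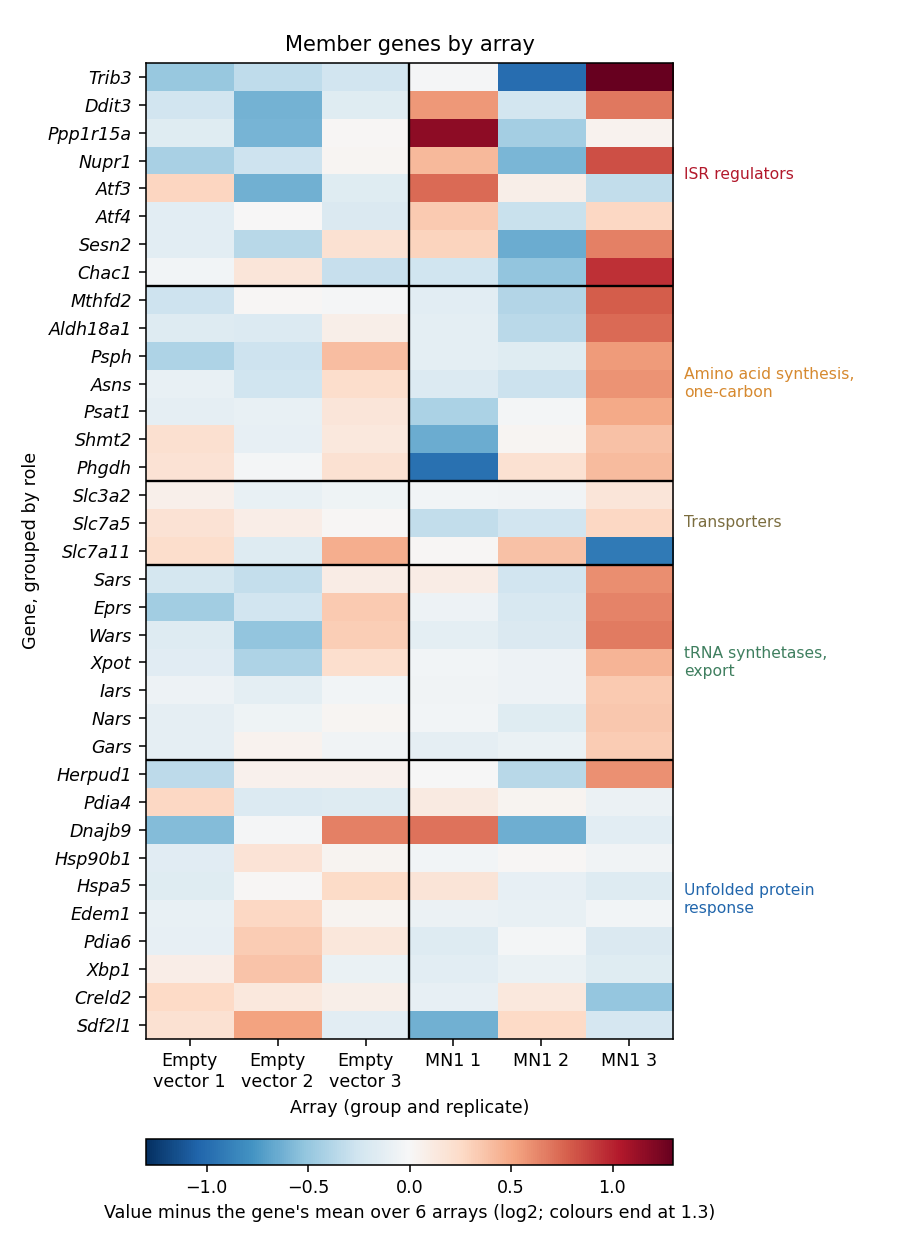
Each row is 1 of the 35 measured genes, grouped by role, and each column 1 of the 6 arrays; the colour gives the value minus that gene's mean over the 6 arrays (log2), with colours ending at 1.3. The column of MN1 replicate 3 is red for most genes of the upper 4 groups and pale or blue for most unfolded protein response genes.

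Promoter sequences show which members carry the known binding elements of the pathways. RefSeq promoters (GRCm38.p6, 250 bases before to 50 after a start site) were found for 32 of the 35 members, matched by gene ID, and searched on both strands for 3 motifs. The C/EBP-ATF response element (CARE, TGATGNAA), which ATF4 binds with C/EBP partners, was in the promoters of 9 of 32 members (28.1%) and of 3.62% of all genes tested that have a promoter in the table. The ER stress response element (ERSE, CCAAT and CCACG with 9 bases of any kind between them), read by ATF6 and the factor NF-Y, was in 4 of 32 (12.5%) and in 0.135% of all genes. The core of the unfolded protein response element (TGACGTG), a site of XBP1 and ATF6, was in 2 of 32 (6.25%) and in 2.60% of all genes. No motif overlapped another in the member promoters shown. The members with CARE were Asns, Slc7a11, Gars, Iars, Atf3, Chac1, Nupr1, Trib3 and Herpud1. Those with ERSE were Creld2, Hsp90b1, Hspa5 and Pdia6, all of the unfolded protein response group. Of the 9 members with CARE, 7 had their highest value on MN1 replicate 3, as had 12 of the 23 without it. Of the 4 with ERSE, 0 had their highest value there, as had 2 of the 17 other genes with ERSE (11.8%). With 4 genes, 0 cannot be told apart from such a share. Herpud1, highest on that array, holds another arrangement of CCAAT and CCACG, given below, that was not counted. Among the 554 other genes with CARE the share highest on MN1 replicate 3 was 15.5%, against 18.5% of all genes tested that have a promoter in the table. A match is a description of letters and not a shown binding site. The members were listed as genes of these responses, so their shares beside those of all genes are not a test. A member without a match may carry the element outside the bases searched.

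The promoters below are examples chosen by their values. Trib3, Asns, Chac1 and Herpud1 carry CARE and were highest on MN1 replicate 3. Hspa5 and Pdia6 carry the searched form of ERSE and were not. Members with CARE that went otherwise are not printed: Atf3 was highest on MN1 replicate 1 and Slc7a11 was lowest on MN1 replicate 3. A link between element and array was not tested. All run 5′ to 3′ on the gene's strand, from RefSeq on GRCm38.p6, with the motif letters in capitals. The windows are chr2:152344031-152344310 (- strand) for Trib3, chr6:7693210-7693459 (- strand) for Asns, chr2:119350992-119351241 (+ strand) for Chac1, chr8:94386179-94386428 (+ strand) for Herpud1, chr2:34771840-34772089 (+ strand) for Hspa5 and chr12:17266339-17266588 (+ strand) for Pdia6. Each holds the 250 bases before the start site, and that of Trib3 runs 30 bases past it, since its element lies there. In Hspa5 the first capitals mark the unfolded protein response core and the second the ERSE. Only the ERSE spacing given above was searched. The Herpud1 window also holds attgggccacg, in which CCAAT on the other strand lies close to CCACG. That arrangement was not searched and is not in capitals.
Trib3: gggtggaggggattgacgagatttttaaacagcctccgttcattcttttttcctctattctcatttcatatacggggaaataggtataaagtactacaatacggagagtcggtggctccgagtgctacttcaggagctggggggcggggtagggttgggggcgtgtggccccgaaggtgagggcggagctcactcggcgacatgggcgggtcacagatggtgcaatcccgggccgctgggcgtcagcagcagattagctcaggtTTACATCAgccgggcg
Asns: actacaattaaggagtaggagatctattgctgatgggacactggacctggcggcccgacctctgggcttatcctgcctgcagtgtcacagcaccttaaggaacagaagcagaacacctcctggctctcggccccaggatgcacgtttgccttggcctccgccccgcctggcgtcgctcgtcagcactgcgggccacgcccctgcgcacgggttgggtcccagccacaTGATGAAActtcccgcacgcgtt
Chac1: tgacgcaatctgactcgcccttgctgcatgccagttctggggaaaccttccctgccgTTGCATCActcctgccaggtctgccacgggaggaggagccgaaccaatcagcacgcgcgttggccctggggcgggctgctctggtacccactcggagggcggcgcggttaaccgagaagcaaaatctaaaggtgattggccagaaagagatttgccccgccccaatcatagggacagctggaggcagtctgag
Herpud1: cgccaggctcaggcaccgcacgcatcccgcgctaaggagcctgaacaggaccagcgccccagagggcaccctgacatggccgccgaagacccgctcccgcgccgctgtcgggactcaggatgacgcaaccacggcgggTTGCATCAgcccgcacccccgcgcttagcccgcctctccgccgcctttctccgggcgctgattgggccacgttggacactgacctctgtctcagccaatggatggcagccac
Hspa5: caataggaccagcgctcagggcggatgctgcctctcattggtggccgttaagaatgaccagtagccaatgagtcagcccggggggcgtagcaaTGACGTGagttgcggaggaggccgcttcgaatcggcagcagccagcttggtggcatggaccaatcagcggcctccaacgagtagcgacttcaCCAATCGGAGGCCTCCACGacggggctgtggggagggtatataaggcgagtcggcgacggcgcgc
Pdia6: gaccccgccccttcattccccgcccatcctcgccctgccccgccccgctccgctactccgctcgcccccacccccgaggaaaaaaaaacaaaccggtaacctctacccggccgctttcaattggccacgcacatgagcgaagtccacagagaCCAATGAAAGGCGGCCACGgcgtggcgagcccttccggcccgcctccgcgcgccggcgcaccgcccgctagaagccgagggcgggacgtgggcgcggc

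Among the regulators, Ddit3 came nearest to a difference between the groups. Ddit3, which encodes the ER stress transcription factor CHOP, measured 7.81, 7.44 and 7.90 on the empty vector arrays and 8.62, 7.82 and 8.74 on the MN1 arrays 1, 2 and 3. MN1 replicates 1 and 3 lay above every empty vector array and MN1 replicate 2 lay between empty vector replicates 1 and 3. The log2 difference was 0.68 ± 0.27 (SE), or 1.60-fold, with an unadjusted p of 0.0416 and an adjusted p of 0.584 (limma). The unadjusted p was 0.0682 after quantile normalization and 0.0700 with array weights, and with 1 array left out it was 0.0019 for MN1 replicate 2 and 0.0547 to 0.129 for the others. Atf4, the central transcription factor, measured 9.81, 9.95 and 9.75 with the empty vector and 10.28, 9.65 and 10.21 with MN1. Again MN1 replicates 1 and 3 were the high arrays, and MN1 replicate 2 was the lowest of all 6. Its difference was 0.21 ± 0.18 (SE, log2; adjusted p = 0.701, limma). ATF4 is controlled mainly through translation, which arrays do not read.

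Trib3, a pseudokinase that ATF4 and CHOP induce and that restrains ATF4, showed the widest range of the members. It measured 8.41, 8.58 and 8.66 on the empty vector arrays and 8.89, 7.92 and 11.00 on the MN1 arrays. The value on MN1 replicate 3 stood 2.11 (log2) above the next highest array. That was the largest such excess of MN1 replicate 3 over the other 5 arrays among all 19938 genes, a ranking made after its value was seen. The group difference was 0.72 ± 0.72 (SE, log2; adjusted p = 0.739, limma), with a 95% interval from -1.02 to 2.46. Without MN1 replicate 3 it was -0.14. Chac1, a glutathione-degrading enzyme downstream of ATF4, measured 7.65, 7.85 and 7.39 with the empty vector and 7.43, 7.18 and 8.64 with MN1. It too was high on MN1 replicate 3 alone, by 0.79 above the next array, and MN1 replicates 1 and 2 lay among or under the controls. Its difference was 0.12 ± 0.38 (SE), and it was -0.32 without MN1 replicate 3.

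Not all regulators were high on the same array. Ppp1r15a (GADD34), the eIF2 phosphatase subunit that ends the response, measured 8.77, 8.33 and 8.95 with the empty vector and 10.10, 8.49 and 8.98 with MN1. Here MN1 replicate 1 stood apart, and MN1 replicate 3 was close to empty vector replicate 3. The difference was 0.51 ± 0.41 (SE, log2; adjusted p = 0.685, limma), and it was 0.05 without MN1 replicate 1. Atf3, a stress-induced transcription factor, also had its highest value, 11.26, on MN1 replicate 1, while its value of 10.21 on MN1 replicate 3 was under 2 of the 3 controls. Nupr1, a small stress-induced chromatin protein, and Sesn2, an ATF4 target that restrains mTORC1, were highest on MN1 replicate 3, at 8.85 and 10.52, and lowest on MN1 replicate 2, at 7.41 and 9.22. Their differences were 0.45 ± 0.36 and 0.21 ± 0.34 (SE, log2). Of the 8 regulators, 5 had their lowest value on MN1 replicate 2 and 3 on empty vector replicate 2.

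**Figure D2:**
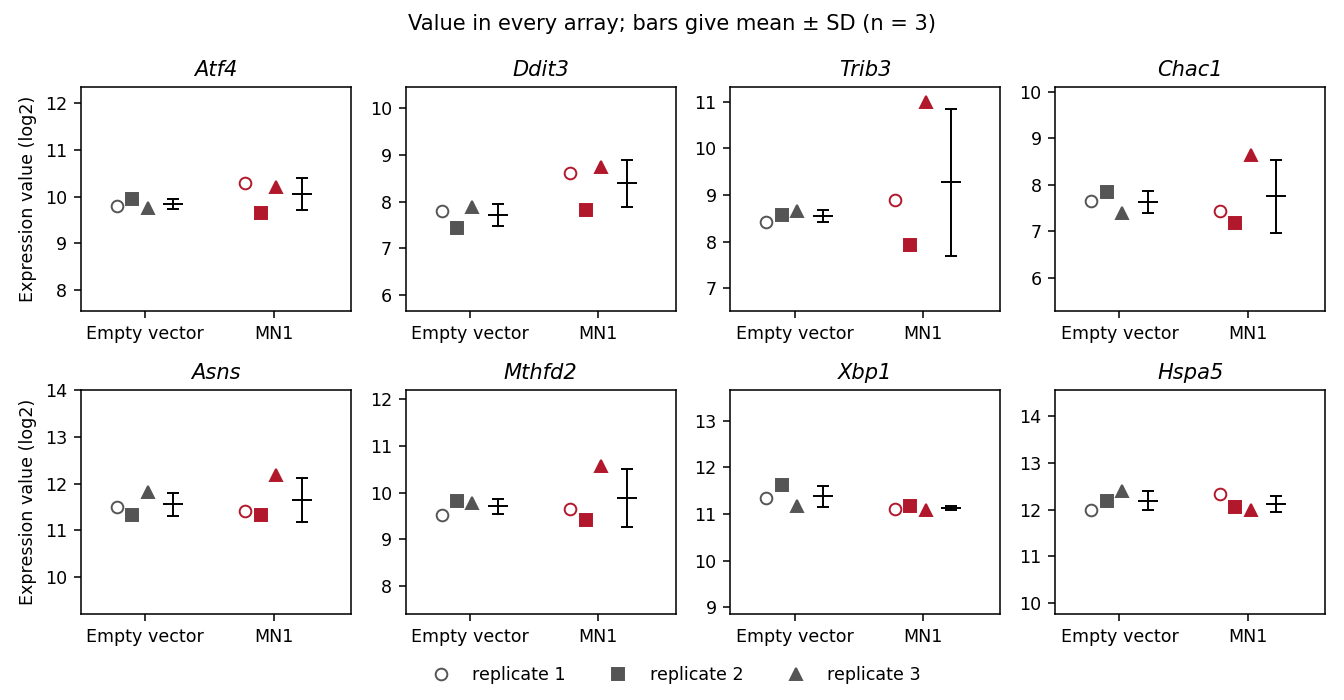
Values (log2) of 8 members in every array, with empty vector in grey and MN1 in red and symbols for replicate number; bars beside them give the mean ± SD (n = 3). The vertical axes have the same span, centred on each gene's mean. Trib3, Chac1, Asns and Mthfd2 have 1 high MN1 array, replicate 3, and Xbp1 and Hspa5 have none.

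The enzymes of amino acid synthesis and one-carbon metabolism were highest on MN1 replicate 3 in 7 of 7 cases, and the group means hardly differed. Asns, asparagine synthetase, measured 11.51, 11.34 and 11.83 with the empty vector and 11.42, 11.33 and 12.19 with MN1. Its difference was 0.09 ± 0.26 (SE, log2; adjusted p = 0.917, limma), with a 95% interval from -0.53 to 0.70. Mthfd2, the mitochondrial folate enzyme, measured 9.52, 9.81 and 9.78 with the empty vector and 9.66, 9.41 and 10.58 with MN1. For both genes MN1 replicates 1 and 2 lay within or under the control range. Aldh18a1, which begins proline synthesis, reached 11.19 on MN1 replicate 3 and lay between 10.10 and 10.52 on the other 5 arrays.

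The serine pathway differed on a further array. Phgdh, its first enzyme, measured 9.85, 9.64 and 9.86 with the empty vector and 8.70, 9.86 and 10.07 with MN1, so that MN1 replicate 1 was the low array. Psat1, the next enzyme, and Shmt2, which turns serine into glycine in mitochondria, were also lowest on MN1 replicate 1, at 10.39 and 9.95. Psph, the last enzyme of serine synthesis, was lowest on empty vector replicate 1, at 7.52, and highest on MN1 replicate 3, at 8.47. The differences over the 7 enzymes ran from -0.24 for Phgdh to 0.18 for Mthfd2, with a median of 0.09; 5 were higher and 2 lower. Without MN1 replicate 3 the median was -0.18 and 7 of 7 were lower; without MN1 replicate 1 it was 0.25 and 7 of 7 were higher; without empty vector replicate 2 it was -0.0032, with 3 higher and 4 lower.

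Among the 3 amino acid transporters the single gene with a higher mean in MN1 was Slc3a2. Slc7a11, the cystine importer, measured 10.78, 10.38 and 11.02 with the empty vector and 10.56, 10.93 and 9.64 with MN1. It was lowest on MN1 replicate 3, where the enzymes of amino acid synthesis and one-carbon metabolism were highest. Its promoter holds CARE at 2 places. The difference was -0.35 ± 0.35 (SE, log2; adjusted p = 0.735, limma), and 0.017 without MN1 replicate 3. Slc7a5, the leucine transporter LAT1, and its heavy chain Slc3a2 varied less, from 12.28 to 12.87 and from 12.77 to 13.02, and both had their highest value on MN1 replicate 3. Their differences were -0.20 ± 0.17 and 0.05 ± 0.10 (SE, log2).

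The tRNA synthetase genes, with the tRNA export gene Xpot, were higher with MN1 in 7 of 7 cases, with differences of 0.08 for Gars to 0.30 for Sars and a median of 0.22. The seryl-tRNA synthetase gene Sars had the largest difference, 0.30 ± 0.23 (SE, log2; adjusted p = 0.678, limma), and it was 0.075 without MN1 replicate 3 and 0.50 without MN1 replicate 2. Its values were 10.42, 10.33 and 10.74 with the empty vector and 10.75, 10.40 and 11.25 with MN1. MN1 replicate 3 was the highest array for each of the 7, by 0.23 for Xpot to 0.50 for Sars over the next. The next highest array was empty vector replicate 3 for Eprs, Wars, Xpot, Iars and Nars, empty vector replicate 2 for Gars and MN1 replicate 1 for Sars. Without MN1 replicate 3 the median was -0.016, with 3 of the 7 higher and 4 lower. Iars has 2 probe sets, with differences of 0.09 and 0.15.

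Genes of the unfolded protein response showed small differences: 8 of the 10 had a lower mean in MN1, where 56.7% of all genes did. Their median difference was -0.10 (log2), beside -0.03 for all genes. The group was bright, with a median level at percentile 97.3 of all genes. With the dimmest 40% of genes left out, the median over all genes was 0.04. The group's counts were 3 higher and 7 lower without empty vector replicate 3, and also without MN1 replicate 2. They stayed at 2 and 8 without each of the other arrays. Xbp1, the transcription factor that IRE1 activates by splicing its mRNA, measured 11.34, 11.62 and 11.16 with the empty vector and 11.11, 11.16 and 11.09 with MN1. The MN1 arrays lay close together at the lower edge of the controls. The difference was -0.25 ± 0.13 (SE, log2; adjusted p = 0.597, limma); a whole-transcript value does not separate spliced from unspliced Xbp1. Hspa5, the ER chaperone BiP, measured 11.996, 12.18 and 12.41 with the empty vector and 12.33, 12.05 and 11.99 with MN1. Its groups overlapped throughout, with a difference of -0.07 ± 0.15 (SE) and a 95% interval from -0.43 to 0.29.

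The other members of this group ran from -0.39 for Sdf2l1 to 0.15 for Herpud1. Sdf2l1, which helps BiP retain misfolded protein, differed by -0.39 ± 0.27 (SE, log2), Creld2, an ER stress-induced isomerase, by -0.31 ± 0.17, and the disulfide isomerase Pdia6 by -0.25 ± 0.14. Adjusted p values over these 3 were 0.652, 0.606 and 0.606 (limma). Edem1, of ER-associated degradation, differed by -0.14 ± 0.12, and Hsp90b1, the chaperone GRP94, by -0.04 ± 0.11. Dnajb9, a BiP cochaperone, differed by -0.04 ± 0.42 and varied most, from 8.61 to 9.95, with its lowest and its highest value both in the MN1 group. Pdia4 differed by 0.06 ± 0.15, and its 2 probe sets by 0.06 and 0.17. Herpud1, an ER degradation factor with CARE in its promoter, was the 1 member of the group with its highest value on MN1 replicate 3, at 11.09, against 10.13 to 10.55 on the other arrays. Empty vector replicate 2 held the highest value for 5 of the 10, among them Xbp1, Pdia6 and Edem1, and for 25.2% of all genes.

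**Figure D3:**
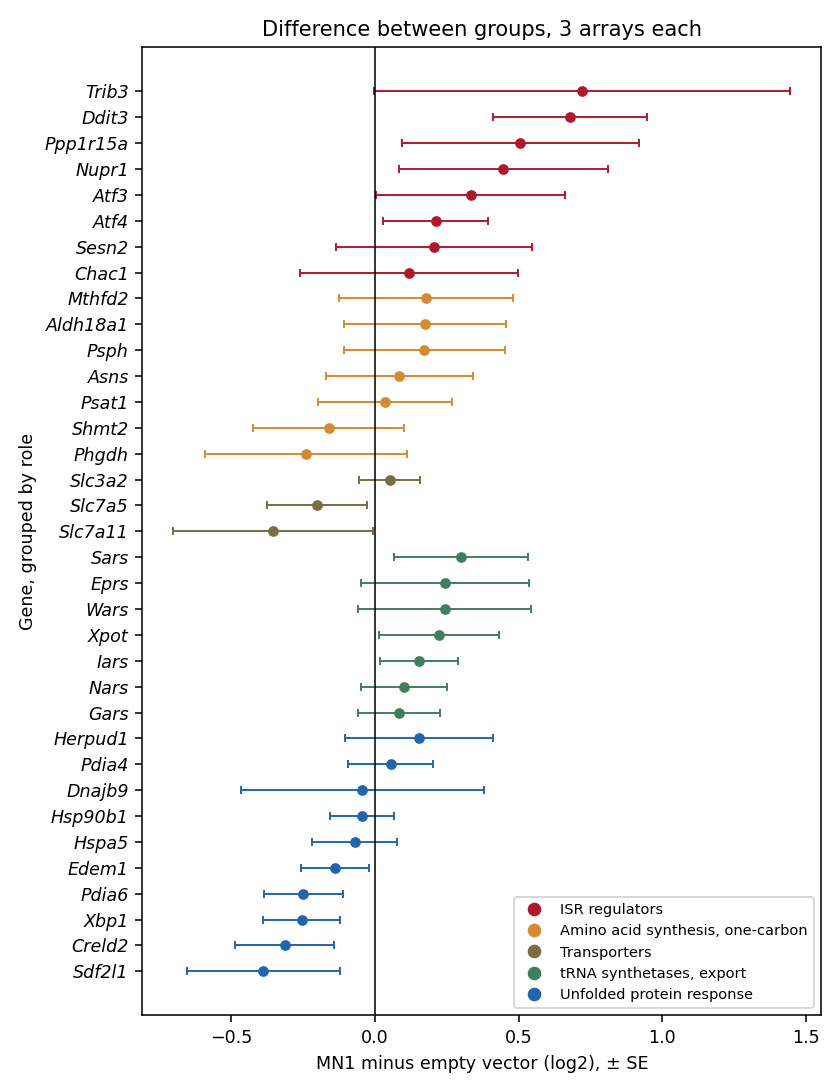
Log2 difference, MN1 minus empty vector, of each of the 35 members with its SE (limma, 3 arrays per group), coloured by role. Regulators and tRNA genes lie to the right of 0 and most unfolded protein response genes to the left; no difference passed adjustment.

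Leaving out 1 array at a time showed how much of each group's difference came from 1 array. With all arrays the median of the 8 regulators was 0.39. It was 0.72 without MN1 replicate 2, 0.20 without MN1 replicate 1 and 0.13 without MN1 replicate 3, where 5 of 8 were higher and 3 lower. Over all 35 members the median was -0.06 without MN1 replicate 3, with 11 higher and 24 lower, and 0.25 without MN1 replicate 2, with 24 higher and 11 lower. Without MN1 replicate 2, 4 members (Atf4, Ddit3, Nupr1 and Sesn2) were higher and 2 (Sdf2l1 and Creld2) lower at an unadjusted p under 0.05, where 5.24% and 4.48% of all genes were. None of them passed adjustment (smallest adjusted p of a member 0.509, limma). MN1 replicate 2 is the array on which 11 of the 35 members were lowest. With each other array left out in turn, 0 members were higher at that threshold. Without empty vector replicate 1, empty vector replicate 3 or MN1 replicate 3, 1 was lower. Without empty vector replicate 2 or MN1 replicate 1, 0 were lower. In these settings 508 to 916 of all 19938 genes were higher and 398 to 1037 lower. In all, 14 of 35 members kept the sign of their difference whichever array was left out, among them Atf3, Atf4, Ddit3, Nupr1, Ppp1r15a, Sars, Xbp1 and Sdf2l1, and 16 changed sign without MN1 replicate 3.

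**Figure D4:**
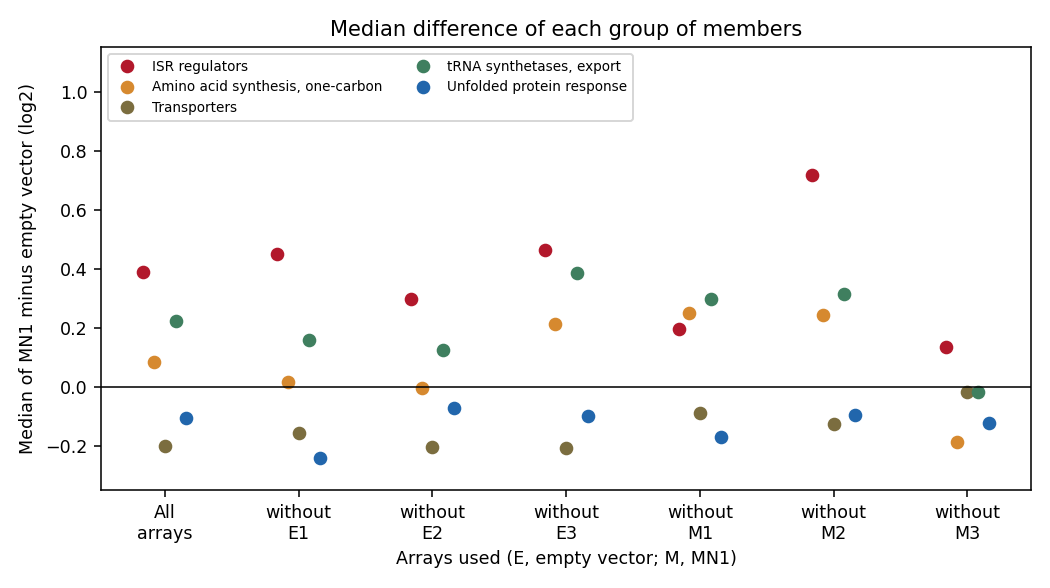
Median log2 difference of each group of members, with all 6 arrays and with each array left out in turn (E1 to E3, empty vector replicates; M1 to M3, MN1 replicates). The regulators stay above 0, between 0.13 and 0.72, the unfolded protein response genes stay below 0, and the tRNA genes lie at -0.016 and the synthesis enzymes at -0.18 without MN1 replicate 3; the synthesis enzymes also lie at -0.0032 without empty vector replicate 2.

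Further genes of the pathways are given next, from lists made by function but with earlier results of these data known. Of 23 measured partners and targets of ATF4 outside the members, 15 had a higher mean with MN1 and 8 a lower one (median 0.25, log2), and 16 had their highest value on MN1 replicate 3 (69.6%, against 17.9% of all genes). Without that array the median was -0.09 (8 higher, 15 lower); it was 0.39 without MN1 replicate 2, 0.15 without MN1 replicate 1 and 0.091 without empty vector replicate 1. Cth, which makes cysteine, measured 6.30, 6.76 and 7.27 with the empty vector and 6.64, 5.84 and 8.63 with MN1, an excess of MN1 replicate 3 that ranked 7 among all genes. Gpt2, an alanine aminotransferase, reached 9.12 there against 7.25 to 8.20 elsewhere, and the neutral amino acid transporter gene Slc1a4 reached 8.20 against 6.72 to 7.40; these 3 were named after their values were seen. In this list 1 gene was higher and 0 lower at an unadjusted p under 0.05, where 4.17% and 4.23% of all genes were. The gene was Vldlr, a lipoprotein receptor and ATF4 target, with a difference of 2.00 ± 0.27 (SE, log2, adjusted p = 0.579, limma). Its values did not follow the pattern: 7.51, 6.98 and 7.78 with the empty vector and 9.88, 9.13 and 9.26 with MN1. All MN1 arrays lay above all controls, with MN1 replicate 1 highest. The list held 1 gene with MN1 wholly above and 1 with MN1 wholly below, against 5.71% and 10.3% of all genes. After Vldlr the largest differences were 0.82 ± 1.06 for the arginine transporter gene Slc7a3 and 0.67 ± 0.51 for Vegfa.

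Upstream of ATF4, the eIF2 kinase gene Eif2ak4 varied little within either group. Eif2ak4, which encodes GCN2, the sensor of uncharged tRNA, measured 7.75, 7.73 and 7.77 with the empty vector and 8.07, 8.04 and 8.12 with MN1. The groups did not overlap, and the difference of 0.33 ± 0.08 (SE, log2) had an unadjusted p of 0.00708 and an adjusted p of 0.584 (limma). Eif2ak2, the double-stranded RNA sensor PKR, differed by 0.33 ± 0.14, also without overlap, and Atf6 by 0.27 ± 0.17. Eif2ak3, which encodes PERK, differed by -0.08. The 8 measured kinase and sensor genes had a median difference of 0.08 (6 higher, 2 lower), and -0.0063 after quantile normalization. It was -0.012 without empty vector replicate 2 (3 higher, 5 lower) and 0.029 without MN1 replicate 3. Without empty vector replicate 1 it was 0.14, and without MN1 replicate 2 it was 0.18. In this list 1 gene was higher and 0 lower at an unadjusted p under 0.05, where 4.17% and 4.23% of all genes were. The MN1 arrays lay wholly above the controls for 2 of the 8 and wholly below for 0, against 5.71% and 10.3% of all genes. The 11 subunit genes of eIF2, eIF2B and the eIF2 phosphatase had a median of 0.04 (-0.034 after quantile normalization), with 7 higher, 4 lower and 0 at an unadjusted p under 0.05; Ppp1r15b differed most, by 0.18 ± 0.12, then Eif2b2 by 0.15 and Eif2s2 by 0.14. The median of this list also turned on leaving out 1 array: it ran from -0.048 without MN1 replicate 2 (3 higher, 8 lower) to 0.10 without MN1 replicate 1, and was below 0 without empty vector replicates 2 and 3 as well, at -0.011 and -0.00068. Leaving out empty vector replicate 1 gave 0.089, and leaving out MN1 replicate 3 gave 0.0062.

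The 14 other cytosolic tRNA synthetase and complex genes had a median difference of 0.05, 11 higher and 3 lower, which turned to -0.041, 4 higher and 10 lower, after quantile normalization. It was -0.092 without MN1 replicate 3 (2 higher, 12 lower), -0.033 without MN1 replicate 2 (6 and 8) and 0.19 without MN1 replicate 1 (14 and 0). Of these, 9 had their highest value on MN1 replicate 3 and 5 on MN1 replicate 2. Lars, Yars and Aimp2 had the largest differences, 0.21, 0.16 and -0.14. The 29 other genes of ER folding, degradation and translocation had a median difference of -0.07, 21 of them lower and 8 higher. The MN1 arrays lay wholly above the controls for 1 and wholly below for 4, against 5.71% and 10.3% of all genes. At an unadjusted p under 0.05 (limma), 0 were higher and 2 lower, where 4.17% and 4.23% of all genes were. The 2 were Sec61b, a subunit of the ER translocation channel, at -0.56 ± 0.17, and Manf, an ER stress-induced secreted factor, at -0.26 ± 0.10 (SE, log2; both adjusted p = 0.584, limma). Wfs1 differed by 0.67 ± 0.38 and Erlec1 by 0.43 ± 0.22. When each array was centred on the median of all its probe sets, 17 of the 29 were lower and 12 higher (median -0.04). The 10 cytosolic heat shock genes, of a separate stress pathway, had a median difference of 0.0095 (-0.018 after quantile normalization), 5 higher and 5 lower, and 0 of them had their highest value on MN1 replicate 3. Without MN1 replicate 3 their median was 0.15 (6 higher, 4 lower) and without empty vector replicate 3 it was 0.11 (9 and 1), and it lay between -0.048 and -0.022 when 1 of the other 4 arrays was left out. With array weights 7 were higher and 3 lower. Hspb1, Bag3 and Dnaja1 differed most, by 0.28, 0.22 and 0.13.

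**Figure D5:**
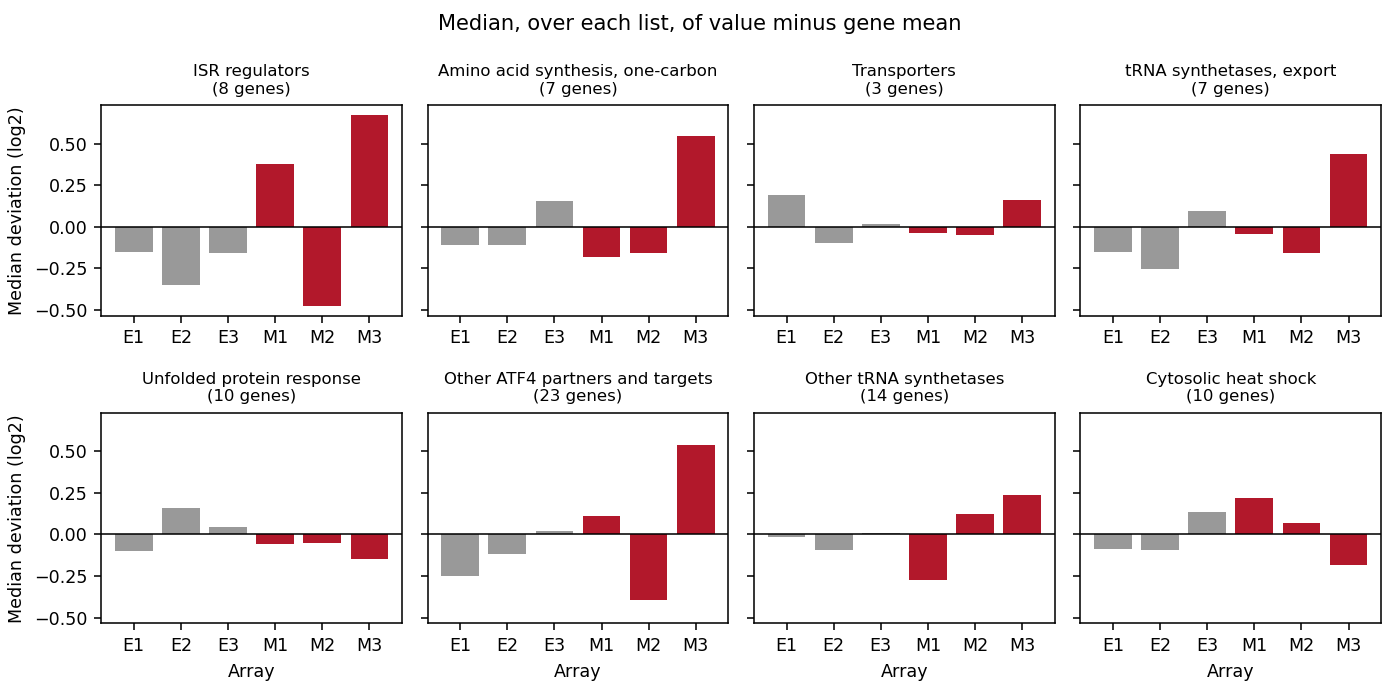
For each list, the bars give the median over its genes of the value minus the gene's mean over 6 arrays (log2), by array (E1 to E3, empty vector; M1 to M3, MN1). MN1 replicate 3 stands at 0.67, 0.55, 0.44 and 0.54 for the regulators, synthesis enzymes, tRNA genes and other ATF4 targets, and at -0.15 and -0.18 for the unfolded protein response and heat shock genes.

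Other measures also differed between these arrays. The Y-linked genes Eif2s3y, Kdm5d and Uty, of which the first encodes an eIF2 subunit, were highest on MN1 replicate 3 and lowest on empty vector replicate 2. Eif2s3y measured 6.72, 3.43 and 8.24 with the empty vector and 8.26, 7.04 and 8.57 with MN1. Of the 4 measured sex-linked genes, the remaining 1 was highest on empty vector replicate 2. The labels do not give donor sex. The 10 monocyte and macrophage markers averaged 8.89 to 10.23 on the empty vector arrays and 10.46 to 11.51 on the MN1 arrays, with 9 of 10 highest on MN1 replicate 1, the array where Atf3 and Ppp1r15a were high. The 10 cell cycle genes averaged 9.24 on that array and 10.06 to 10.51 on the others. The 12 granulocyte markers averaged 8.31 to 11.98 with the empty vector and 8.89 to 9.87 with MN1, and 12 of 12 were highest on empty vector replicate 2. That array also held the highest value for 5 of the 10 unfolded protein response genes and for 25.2% of all genes. The 9 stem and early progenitor markers averaged 8.04 to 8.56 and 8.71 to 9.45. The 11 B lineage and plasma cell markers averaged 6.40 to 7.68 and 6.60 to 7.71. Their median deviation from the gene means was 0.64, -0.74 and 0.50 on MN1 replicates 1, 2 and 3. On empty vector replicates 1, 2 and 3 it was -0.37, -0.57 and 0.40. Of the 11, 7 were lowest on MN1 replicate 2 and 5 were highest on empty vector replicate 3. The regulators stood at 0.38, -0.48 and 0.67 on the MN1 arrays and -0.15, -0.35 and -0.16 on the empty vector arrays. Of the 8 regulators, 5 were lowest on MN1 replicate 2 and 0 were highest on empty vector replicate 3. Of the 9 stem and early progenitor markers, 7 were highest on MN1 replicate 2. The 10 markers of mast cells, basophils and eosinophils averaged 8.89 to 10.72 and 8.74 to 9.80. The 5 measured megakaryocyte markers averaged 8.89 to 10.23 and 10.11 to 11.53, and the 5 erythroid markers 6.80 to 7.22 and 6.04 to 6.69. On MN1 replicate 3 itself, 1 of the 9 progenitor and 1 of the 10 monocyte markers were at their highest, and 0 of the granulocyte, mast cell, megakaryocyte, erythroid, B lineage and cell cycle lists. The part of these differences in the member values was not tested.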

How the data were processed

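RNA of sorted bone marrow cells (200 ng) was biotin-labelled and hybridised to one-colour Affymetrix whole-transcript arrays, per the labels' protocols. The authors deposited log2 expression values per probe set; the submitters' processing notes name RMA, and the sources used here state neither its version nor which arrays were normalized jointly. RMA pulls dim values together, which understates differences of weak genes. Of 35557 probe sets, 21789 carry 1 gene symbol and 1621 several in GEO's platform annotation, which left 19938 genes. All 6 columns were used.

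Differences are MN1 minus empty vector from limma 3.58.1 (R 4.3.3; lmFit and eBayes defaults, two-sided, no block, Benjamini-Hochberg over all genes, threshold 0.05), with moderated SE. Alternatives were the replicate number as a block, other scalings, a filter on dim genes, averaging probe sets per gene, other eBayes settings, array weights and each array left out. The fit was tested on simulated data. Values by array are given for members with a log2 difference of at least 0.5, an unadjusted p under 0.05 or groups that do not overlap, and for 7 set genes (Atf4, Ddit3, Trib3, Asns, Chac1, Xbp1 and Hspa5); from each other list, genes with an unadjusted p under 0.05 and the 3 with the largest difference. Others named by array were chosen after their values were seen. The members and lists were chosen with earlier results of these data known. Promoters and motifs came from RefSeq tables.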

Additional observations from a re-analysis of the deposited data

How the results depend on the processing

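In the 8 alternatives with all arrays and the 6 that leave out 1 array, 0 members had an adjusted p under 0.05 (limma), and the smallest adjusted p of a member lay between 0.4999 and 0.935. Of the 8, 1 changed the sign of a member: Psat1 was -0.0046 after quantile normalization. The centring on all probe sets was chosen after seeing the data; it moved the split of all genes at an unadjusted p under 0.05 from 832 higher and 843 lower to 977 and 400, and the members stayed at 23 higher and 12 lower. With the replicate number as a block, Ddit3 had an unadjusted p of 0.0058 and an adjusted p of 0.4999, and the split of all genes was 1140 higher and 840 lower. The deviations of same-numbered arrays from their group means correlated at 0.130, 0.0747 and 0.324 across genes, and empty vector replicate 1 correlated most with MN1 replicate 2, at 0.437, so the numbers were not taken as pairs. Leaving out 1 array changed the sign of 21 members. Leaving out 1 array at a time, the difference ran from -0.63 to 0.017 for Slc7a11, -0.50 to 0.19 for Phgdh, -0.41 to 0.27 for Dnajb9, -0.39 to 0.12 for Shmt2, -0.32 to 0.40 for Chac1, -0.20 to 0.25 for Psat1 and -0.18 to 0.25 for Asns. It ran from -0.17 to 0.036 for Hspa5, -0.17 to 0.42 for Mthfd2, -0.15 to 0.39 for Aldh18a1, -0.14 to 1.40 for Trib3, -0.13 to 0.036 for Hsp90b1, -0.11 to 0.37 for Herpud1 and -0.070 to 0.58 for Sesn2. For the rest it ran from -0.058 to 0.42 for Psph, -0.058 to 0.16 for Gars, -0.048 to 0.21 for Nars, -0.034 to 0.46 for Wars, -0.019 to 0.20 for Pdia4, -0.016 to 0.099 for Slc3a2 and -0.016 to 0.48 for Eprs. Of the 14 that kept their sign, Ddit3 ran from 0.50 to 0.97, Nupr1 from 0.14 to 0.86, Ppp1r15a from 0.052 to 0.86, Atf3 from 0.047 to 0.57, Atf4 from 0.096 to 0.41, Sars from 0.075 to 0.50, Xpot from 0.059 to 0.39, Iars from 0.021 to 0.22, Slc7a5 from -0.39 to -0.089, Sdf2l1 from -0.61 to -0.17, Creld2 from -0.46 to -0.14, Xbp1 from -0.36 to -0.13, Pdia6 from -0.36 to -0.14 and Edem1 from -0.22 to -0.040. The median of the unfolded protein response group ran from -0.24 to -0.070, that of the transporters from -0.21 to -0.016, and that of all members from -0.058 to 0.25. An array left out leaves 2 against 3, and the cause of these shifts was not tested. No scanner files were analysed here, so background and detection cannot be judged.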
